A study of Mus musculus with 20 samples.

Results

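The genes of fatty acid synthesis and desaturation were followed across Trim33-WT and Trim33-KO p19/Nras mouse liver cancer cells. The set holds 10 genes, taken by symbol: Acly, Acss2, Acaca, Fasn, Elovl6, Elovl5, Scd1, Scd2, Fads1 and Fads2. All 10 were among the 13107 genes of the Myc experiment, and 9 were among the 11210 genes of the HU experiment, where Acss2 was not analysed here. All 10 passed the filter on low counts in the Myc experiment and 9 of 9 did so in the HU experiment, since that filter removed 0 genes from either table.

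The data are RNA-seq counts from cells of a single line, p19KONras, which come from a liver tumor induced by Nras in p19/Arf-null mice, so that every group lacked p19/Arf and carried Nras. Trim33, an E3 ubiquitin ligase that reads chromatin marks, had been targeted by CRISPR. In the Myc experiment, cells with a control guide (Trim33-WT, genotype sgCtrl) and a pair of Trim33-KO lines (KO1 and KO2, genotype sgTrim33) carried either the pWZL control vector (WT Ctrl, KO1 Ctrl and KO2 Ctrl) or a Myc vector (WT Myc, KO1 Myc and KO2 Myc). In the HU experiment, Trim33-WT and Trim33-KO cells received 1 mM hydroxyurea (HU), which depletes deoxynucleotides and stalls DNA replication, or the control treatment for 4 hours (WT Vehicle, KO Vehicle, WT HU and KO HU), and from the labels it could not be told whether these KO cells were KO1 or KO2. All cells grew in DMEM with fetal bovine serum. Each of the 10 groups had n = 2 libraries, whose labels do not say whether they came from separate cultures, so that p-values measure only the spread between these libraries, which may be technical.

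Cells make fatty acids in the cytosol from acetyl-CoA. Acly cleaves citrate exported from mitochondria into acetyl-CoA, and Acss2 makes acetyl-CoA from acetate. Acaca, acetyl-CoA carboxylase 1, turns acetyl-CoA into malonyl-CoA in the committed step, and Fasn, fatty acid synthase, builds palmitate from it. Elovl6 lengthens palmitate to stearate, and the stearoyl-CoA desaturases Scd1 and Scd2 put in the first double bond to give monounsaturated fatty acids. Fads2, Elovl5 and Fads1 act on the polyunsaturated fatty acids of the diet, as the delta-6 desaturase, an elongase and the delta-5 desaturase. Transcription of these genes is known to be driven by the sterol regulatory element-binding proteins Srebp1 and Srebp2 (genes Srebf1 and Srebf2), which Scap carries from the endoplasmic reticulum to the Golgi when sterols are low and which Insig1 and Insig2 hold back. In liver, insulin and feeding raise this program, and many tumors keep it high.

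The 10 genes lie on 5 mouse chromosomes. In mm9, the build to which the reads were mapped, and by the GENCODE vM1 annotation, 3 of them are on chromosome 11: Fasn at chr11:120667254-120685492 on the minus strand, Acaca at chr11:83943174-84215153 on the plus strand and Acly at chr11:100337667-100389314 on the minus strand. Another 4 are on chromosome 19 in 2 neighbouring pairs. Scd1 (chr19:44468941-44482199, minus) and Scd2 (chr19:44368166-44381354, plus) are 87.6 kb apart, and Fads1 (chr19:10257378-10271360, plus) and Fads2 (chr19:10138654-10175993, minus) are 81.4 kb apart. Elovl5 is at chr9:77765171-77832326 (plus), Elovl6 at chr3:129235304-129341413 (plus) and Acss2 at chr2:155343684-155411460 (plus). Overlap with other genes was sought between exons only. The exons of Acss2 overlap those of 3 genes on the opposite strand, Ggt7, Gss and 4930471I20Rik. The exons of Acaca overlap those of 1, Gm17722, also on the opposite strand, and those of Scd2 overlap an miRNA gene on its own strand. Since the sources used here do not say whether counting used strand, reads from those genes and from Acss2 or Acaca cannot be told apart where exons overlap. Scd1 and Scd2 are close paralogs, and how reads that match both were counted is not given in the sources used here, so the split between them is uncertain.

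Promoter sequences from RefSeq (GRCm38.p6, 250 bases before to 50 after the annotated start) were at hand for 7 of the 10 genes, all but Scd1, Scd2 and Fads1. Stretches of 3 of them are shown, since Acly and Fasn were among the genes that were higher in both Trim33-KO lines and Acss2 was lower in both. The stretch of Acly is chr11:100528001-100528125 on the minus strand, that of Fasn is chr11:120824598-120824707 on the minus strand and that of Acss2 is chr2:155517893-155518018 on the plus strand, each written 5′ to 3′ and ending 1, 51 and 25 bases before the start. Capitals mark the searched motifs on either strand: the GC box GGGCGG, the NF-Y box CCAAT and the E2f core TTTNNCGC, each also as its reverse complement. The last capitals of Fasn hold a pair of CCAAT matches, 1 on each strand, that overlap.
Acly promoter: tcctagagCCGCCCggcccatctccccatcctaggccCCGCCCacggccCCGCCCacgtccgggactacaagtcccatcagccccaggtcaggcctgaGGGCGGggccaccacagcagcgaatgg
Fasn promoter: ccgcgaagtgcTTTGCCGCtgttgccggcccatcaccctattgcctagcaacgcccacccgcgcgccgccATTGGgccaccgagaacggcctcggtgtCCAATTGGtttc
Acss2 promoter: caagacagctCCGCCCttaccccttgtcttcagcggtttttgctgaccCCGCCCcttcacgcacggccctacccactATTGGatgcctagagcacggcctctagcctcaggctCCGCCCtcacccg

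The sterol response element core TCACNCCAC was in 0 of these 7 windows and in 1.24% of all 32851 windows of the same length, which says only that these letters are not there. CCAAT was in 4 of 7 (Acly, Acss2, Elovl5 and Fasn) against 37.4% of all windows, and GGGCGG was in 3 of 7 (Acly, Acss2 and Fads2) against 35.7%. The E-box CACGTG was in 1 of 7 (Elovl5) against 7.15%, and TTTNNCGC was in 1 of 7 (Fasn) against 5.17%. These are matches of letters and not measured binding sites.

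Library depth was 14753177 to 17949430 counts in the Myc experiment and 2315327 to 3082202 counts in the HU experiment, so the second is the less precise of the pair. The 10 genes took from 0.275% to 0.516% of a library's counts in the Myc experiment, and the 9 genes took from 0.199% to 0.278% in the HU experiment. Levels are given as CPM, counts scaled to the library total times its TMM factor within an experiment. Trim33 mRNA was at 246 and 258 CPM in WT Ctrl, at 123 and 130 CPM in KO1 Ctrl and at 201 and 207 CPM in KO2 Ctrl, and it was lower in KO1 Ctrl (log2FC -0.99) and KO2 Ctrl (-0.31). Of the libraries with the Myc vector, those labelled KO1 Myc went against their label: Trim33 mRNA was at 131 and 155 CPM in those labelled WT Myc, at 185 and 193 CPM in those labelled KO1 Myc and at 124 and 125 CPM in those labelled KO2 Myc, and it was called higher in KO1 Myc than in WT Myc (0.40). Both libraries labelled KO2 Myc were below both labelled WT Myc, with a log2FC of -0.20 that did not pass (adjusted p = 0.0263). The libraries labelled WT Myc (mean 143 CPM) were themselves below both WT Ctrl libraries (mean 252 CPM) and both KO2 Ctrl libraries (mean 204 CPM). Trim33 mRNA thus did not bear out the label WT Myc either, and the reason was not tested. In the HU experiment Trim33 mRNA was lower in KO Vehicle (-1.49) and in KO HU (-1.45) than in the matching WT groups. The place of the CRISPR cut among the counted exons was not analysed here, and the loss of protein was not measured by these counts. The cell type label HCC met few liver markers. Of 10 hepatocyte markers, only Afp was listed in the Myc experiment and only Afp and Apob in the HU experiment. Of 6 epithelial markers, Epcam and Cdh1 were listed in neither experiment. Over all libraries Krt8 and Krt18 were at 922 to 1981 CPM, Krt19 at 46.8 to 415 CPM and Sox9 at 15.4 to 200 CPM. Of 6 mesenchymal markers, Vim was at 2602 to 3531 CPM and Fn1 at 490 to 4541 CPM. Acta2, Col1a1, Col1a2 and Pdgfrb were at 0 to 204 CPM where listed. Of 5 adipocyte markers, only Fabp4 was listed in the Myc experiment, at 0 to 1.30 CPM, and none in the HU experiment. No endothelial marker of 3 was listed in either.

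The first comparison asked how the lipogenic genes differ between Trim33-KO and Trim33-WT cells with the Ctrl vector. Most of the pathway was higher in both KO lines. Fasn, Elovl6 and Fads2 were at 2.45 to 2.68 times their WT Ctrl level, Acaca, Acly, Scd1 and Scd2 were 1.46 to 1.98 times as high, and Acss2 was lower. In KO1 Ctrl 8 of 10 genes were called higher and 1 lower at an adjusted p below 0.01, where 25.5% of all genes tested were called higher and 26.7% lower. In KO2 Ctrl 7 of 10 were called higher and 1 lower, against 23.3% and 26.6% of all genes. The 10 genes had a median log2FC of 0.79 in KO1 Ctrl and of 0.81 in KO2 Ctrl, beside medians over all genes of -0.0036 and -0.011. All 4 KO Ctrl libraries were above both WT Ctrl libraries for 7 of 10 genes, as they were for 32.2% of all genes. Since a single pair of WT Ctrl libraries serves both comparisons, they are not independent of each other. In such bulk libraries, fewer cells that express a gene and less of its mRNA per cell cannot be told apart.

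**Figure D1:**
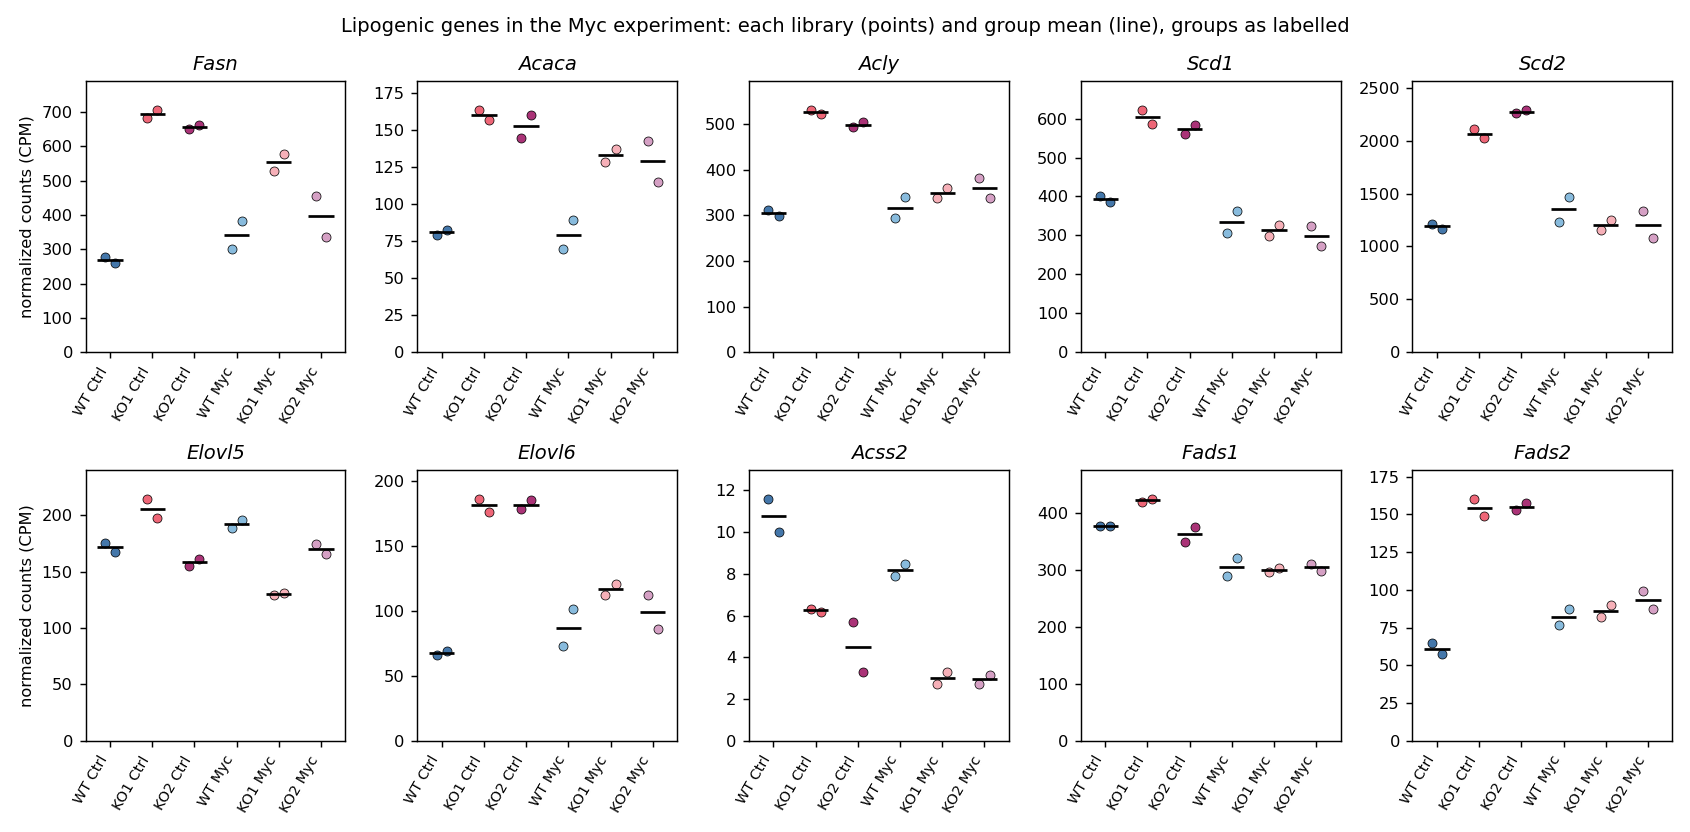
Level of each of the 10 genes (CPM scaled by TMM, linear axis from 0) in the 12 libraries of the Myc experiment, with 1 point per library and a line at the mean of each group of 2, groups as labelled. For Fasn, Acaca, Acly, Scd1, Scd2, Elovl6 and Fads2 all 4 KO Ctrl points lie above both WT Ctrl points, and for Acss2 all 4 lie below them.

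At the supply of acetyl-CoA, Acly and Acss2 went opposite ways. Acly was at 311 and 298 CPM in WT Ctrl, at 531 and 522 CPM in KO1 Ctrl and at 495 and 504 CPM in KO2 Ctrl. Both KO lines stood above both WT libraries, and the lines were close to each other. For KO1 Ctrl the log2FC was 0.79 ± 0.071 (SE, adjusted p = 7.03e-08), and for KO2 Ctrl it was 0.71 ± 0.071 (adjusted p = 2.71e-07). Acss2, the acetate-using enzyme, had few reads: 11.6 and 9.98 CPM (164 and 146 counts) in WT Ctrl, 6.32 and 6.18 CPM in KO1 Ctrl and 5.68 and 3.32 CPM in KO2 Ctrl. The 4 KO libraries were below both WT libraries, and the KO2 pair differed most between themselves. For KO1 Ctrl its log2FC was -0.79 ± 0.174 (adjusted p = 0.000922), and for KO2 Ctrl it was -1.26 ± 0.185 (adjusted p = 2.03e-05). The call in KO1 Ctrl was lost without WT Ctrl replicate 1 (log2FC -0.67, adjusted p = 0.0171) and without KO1 Ctrl replicate 2 (-0.77, adjusted p = 0.0102).

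Both enzymes of the core pathway were higher. Acaca, which makes malonyl-CoA, was at 79.2 and 82.8 CPM in WT Ctrl, at 164 and 157 CPM in KO1 Ctrl and at 145 and 161 CPM in KO2 Ctrl. The lowest KO library was well above the highest WT library. Its log2FC was 0.98 ± 0.105 (adjusted p = 5.28e-07) and 0.91 ± 0.105 (adjusted p = 1.43e-06). Fasn rose further, from 278 and 258 CPM in WT Ctrl to 682 and 706 CPM in KO1 Ctrl and 650 and 663 CPM in KO2 Ctrl. The replicates of each group lay far closer to each other than to those of the other genotype. The log2FC of Fasn was 1.37 ± 0.116 (2.59-fold, adjusted p = 3.57e-08) in KO1 Ctrl and 1.29 ± 0.116 (2.45-fold, adjusted p = 8.57e-08) in KO2 Ctrl.

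The elongases divided. Elovl6, which extends palmitate, showed the largest log2FC of the 10 genes in both lines: it was at 65.99 and 69.3 CPM in WT Ctrl, at 186 and 176 CPM in KO1 Ctrl and at 178 and 185 CPM in KO2 Ctrl. The libraries of KO1 and KO2 overlapped in level. The log2FC was 1.42 ± 0.126 in each line (adjusted p = 5.87e-08 in KO1 Ctrl and 6.77e-08 in KO2 Ctrl). Elovl5, the elongase of polyunsaturated fatty acids, was at 176 and 168 CPM in WT Ctrl, 215 and 197 CPM in KO1 Ctrl and 155 and 162 CPM in KO2 Ctrl. It was thus highest in KO1 and lowest in KO2. The log2FC was 0.26 ± 0.058 (adjusted p = 0.000901) in KO1 Ctrl, a call lost without KO1 Ctrl replicate 1 (0.20, adjusted p = 0.0265) or without WT Ctrl replicate 2 (0.23, adjusted p = 0.0169), and -0.12 ± 0.058 in KO2 Ctrl, which did not pass (adjusted p = 0.0903).

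The stearoyl-CoA desaturases were both higher. Scd1 was at 401 and 386 CPM in WT Ctrl, at 622 and 587 CPM in KO1 Ctrl and at 561 and 584 CPM in KO2 Ctrl. The more abundant Scd2 was at 1214 and 1167 CPM in WT Ctrl, 2108 and 2026 CPM in KO1 Ctrl and 2260 and 2289 CPM in KO2 Ctrl. For each gene the WT and KO libraries did not overlap. The log2FC of Scd1 was 0.62 ± 0.083 (adjusted p = 6.82e-06) and 0.54 ± 0.083 (adjusted p = 3.19e-05), and that of Scd2 was 0.80 ± 0.088 (adjusted p = 8.04e-07) and 0.93 ± 0.088 (adjusted p = 1.51e-07), in KO1 Ctrl and KO2 Ctrl.

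The neighbouring desaturases of polyunsaturated fatty acids differed from each other. Fads2, which acts first, was at 64.7 and 57.3 CPM in WT Ctrl, at 160 and 149 CPM in KO1 Ctrl and at 153 and 158 CPM in KO2 Ctrl, with log2FC of 1.34 ± 0.083 (adjusted p = 7.67e-10) and 1.35 ± 0.083 (adjusted p = 1.07e-09). No other member had a smaller adjusted p in either comparison. Fads1, which acts later in the same route, was at 377 and 376 CPM in WT Ctrl, at 419 and 425 CPM in KO1 Ctrl and at 350 and 375 CPM in KO2 Ctrl. Its log2FC of 0.17 in KO1 Ctrl (adjusted p = 0.0207) and -0.055 in KO2 Ctrl (adjusted p = 0.43) did not pass the threshold. Fads1 in KO1 Ctrl passed when only the compared groups were fitted (0.17, adjusted p = 0.000577), with library totals alone as the scale (0.22, adjusted p = 0.00427) and when the Ctrl-vector libraries were fitted alone, an alternative chosen after the data were seen (0.17, adjusted p = 0.000447), and each of these gave 10 calls in KO1 Ctrl.

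**Figure D2:**
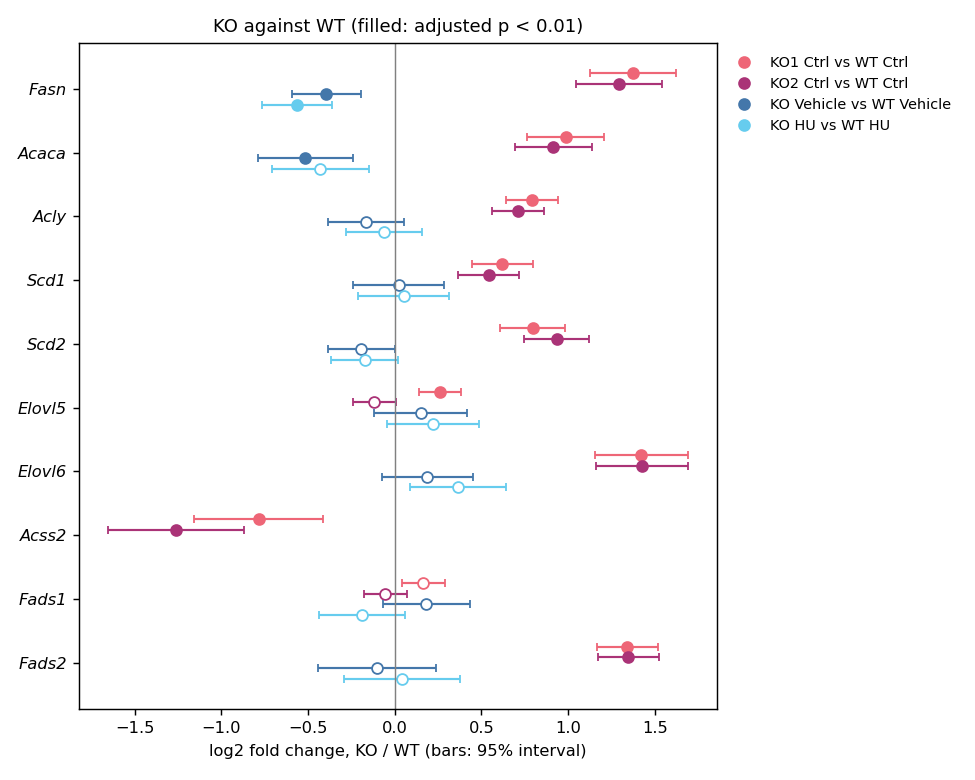
Log2 fold change of KO against WT for each gene (x axis; 0 is no difference), in the Ctrl-vector cells of the Myc experiment (KO1 and KO2) and in the vehicle and HU cells of the HU experiment, with bars for the 95% interval and filled points for an adjusted p below 0.01. Elovl6, Fasn and Fads2 lie near 1.3 to 1.4 in KO1 and KO2, while Fasn is at -0.39 and -0.56 in the HU experiment.

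The lines KO1 and KO2 differed from each other in 2 of the 10 genes, both lower in KO2 Ctrl and 0 higher, where 9.96% of all genes were called lower and 8.33% higher. Elovl5 was lower in KO2 by a log2FC of -0.38 ± 0.058 (adjusted p = 0.000107) and Fads1 by -0.22 ± 0.058 (adjusted p = 0.00903). The call of Fads1 was lost without any single library of the 4 compared (adjusted p from 0.0178 to 0.124) and in 4 other settings. Scd2 was called higher in KO2 when only the compared groups were fitted (0.15, adjusted p = 0.000438) or the Ctrl-vector libraries alone (0.15, adjusted p = 0.0014). For Fasn the difference between the lines was -0.079 (95% interval -0.32 to 0.16) and for Elovl6 0.0025 (-0.25 to 0.25), which leaves room for differences of that size. The 8 genes that did not pass ranged from -0.47 for Acss2 to 0.14 for Scd2, and 3 of 10 genes were under an unadjusted p of 0.05.

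Per length of exon (CPM per kb, with exons joined over all GENCODE vM1 transcripts), Scd2 stood highest in WT Ctrl at 218 ± 6.0 CPM per kb (SD, n = 2), followed by Fads1 at 109 ± 0.11, Scd1 at 81.4 ± 2.2 and Acly at 57.7 ± 1.7. Elovl5 came next at 48.8 ± 1.6, then Fads2 at 40.5 ± 3.5, Fasn at 27.2 ± 1.4, Elovl6 at 11.4 ± 0.39, Acaca at 7.95 ± 0.25 and Acss2 at 1.06 ± 0.11, and no neighbours in this order overlapped within 1 SD. In KO1 Ctrl Scd2 stayed first at 379 ± 10.6 CPM per kb. There Scd1 (125 ± 5.0) and Fads1 (122 ± 1.1) lay within each other's spread, as did Fads2 (102 ± 5.4) and Acly (99.7 ± 1.2). In KO2 Ctrl Fads1 (105 ± 5.2) and Fads2 (103 ± 2.4) did so. The joined exons of Fads2 add up to 1508 bases and those of Acss2 to 10163 bases, so the places of both depend on these gene models.

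Genes around the pathway were described from lists written by hand. Beside the counts for these lists and the markers below, 25.5% of all genes were called higher and 26.7% lower in KO1 Ctrl. In KO2 Ctrl the shares were 23.3% and 26.6%. Some of the counts, such as those of fatty acid oxidation, lie near these shares. Among the regulators, 5 of 15 were called higher and 5 lower in KO1 Ctrl, and 7 higher and 5 lower in KO2 Ctrl, with medians of 0.15 and 0.026. Srebf1 was at 135 and 127.5 CPM in WT Ctrl, at 202 and 197 CPM in KO1 Ctrl and at 217 and 205 CPM in KO2 Ctrl, with log2FC of 0.60 ± 0.058 (adjusted p = 1.72e-07) and 0.68 ± 0.058 (adjusted p = 4.47e-08). All 4 KO libraries were above both WT libraries. Srebf2 was called higher by 0.24 and 0.21, Scap by 0.25 and 0.21, and Insig1, itself a target of the Srebp factors, by 1.31 and 0.97. Mid1ip1, which helps acetyl-CoA carboxylase polymerize, was called lower by -0.52 and -0.85.

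In the supply of citrate, NADPH and malonyl-CoA, 4 of 9 genes were called higher and 2 lower in KO1 Ctrl, and 3 higher and 3 lower in KO2 Ctrl. Slc25a1, the mitochondrial citrate carrier that feeds Acly, was called higher by 0.95 and 0.96, and Idh1, a source of NADPH, by 1.37 and 0.81. Mlycd, which breaks malonyl-CoA down, was called lower by -1.42 and -1.84. Me1, malic enzyme, had log2FC of 0.078 and 0.11 and did not pass, nor did Acacb, the mitochondrial acetyl-CoA carboxylase, which was at 0.454 CPM on average in WT Ctrl.

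Of 11 further elongation and desaturase genes, 4 were called higher and 3 lower in KO1 Ctrl, and 2 higher and 3 lower in KO2 Ctrl. Fads3, a further gene of the Fads family, was lower by -1.74 and -1.91 (333 and 346 CPM in WT Ctrl, 104 and 99.2 CPM in KO1 Ctrl, 85.3 and 94.97 CPM in KO2 Ctrl), against the direction of Fads2. Scd4, another paralog of Scd1 and Scd2 with the same uncertainty over shared reads, was called higher by 0.97 and 0.99. Elovl1, an elongase of saturated chains, was called higher in KO1 Ctrl (0.34) and had 0.20 in KO2 Ctrl, which did not pass, while Hsd17b12, of the elongation cycle, had -0.15, which did not pass, and was called lower in KO2 Ctrl (-0.22).

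Downstream of synthesis, 6 of 15 acyl-CoA synthetase and glyceride synthesis genes were called higher and 5 lower in KO1 Ctrl, and 5 higher and 3 lower in KO2 Ctrl. Plin2, the coat protein of lipid droplets, fell from 788 and 826 CPM in WT Ctrl to 238 and 255 CPM in KO1 Ctrl and 254 and 270 CPM in KO2 Ctrl (log2FC -1.71 and -1.62), and Acsl1, which activates fatty acids, had -2.19 and -1.11. Lpin1, a phosphatidate phosphatase of glyceride synthesis named after its values were seen, was called higher by 1.29 and 1.26. In fatty acid oxidation 3 of 14 were called higher and 3 lower in KO1 Ctrl, and 3 higher and 4 lower in KO2 Ctrl. Cpt1a, which lets fatty acids into mitochondria, was called higher by 0.37 and 0.42, and Echs1, of the oxidation cycle, lower by -0.88 and -0.72.

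Cholesterol synthesis and uptake, the other branch driven by Srebp factors, had 17 of 21 genes called higher and 1 lower in KO1 Ctrl, and 13 higher and 2 lower in KO2 Ctrl, with medians of 0.85 and 0.56. Idi1, of the isoprenoid steps, went from 66.1 and 60.1 CPM in WT Ctrl to 249.7 and 244 CPM in KO1 Ctrl and 175 and 176 CPM in KO2 Ctrl. The KO and WT libraries were far apart, with log2FC of 1.97 and 1.48. Hmgcs1 was not analysed here.

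Marker genes of other cell states moved beside these results. Afp, the fetal liver marker, was at 33.0 and 30.2 CPM in WT Ctrl, 0.80 and 0.92 CPM in KO1 Ctrl and 8.56 and 8.13 CPM in KO2 Ctrl. Of 6 mesenchymal markers 5 were called higher and 0 lower in KO1 Ctrl, and 1 higher and 3 lower in KO2 Ctrl, and of 4 epithelial markers that were listed, 3 were called lower in each line. Their part in the result was not tested.

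The second comparison set the Myc vector against the Ctrl vector in each line, with groups as labelled, although Trim33 mRNA went against the label of KO1 Myc. Trim33 mRNA in the libraries labelled WT Myc was also below its WT Ctrl level. Myc mRNA was at 433 and 439 CPM in WT Ctrl and at 456 and 458 CPM in WT Myc, a log2FC of 0.067 that did not pass (adjusted p = 0.31), while it was called higher with the Myc vector in KO1 (log2FC 1.73) and KO2 (1.16), from Ctrl levels that were called lower than in WT Ctrl (-1.19 and -1.02). The labelled Myc vector thus came with more Myc mRNA in the KO lines and without a called change in WT. In the libraries labelled KO1 and KO2, the lipogenic genes were lower with the Myc vector, and in those labelled WT they were mostly not called. The Ctrl libraries are the same as in the first comparison, so this result is not independent of the higher levels in KO Ctrl. In KO1 Myc against KO1 Ctrl 0 genes were called higher and 8 of 10 lower, where 17.9% of all genes were called higher and 18.2% lower. In KO2 Myc against KO2 Ctrl 0 were called higher and 7 of 10 lower, against 20.2% and 18.6%. In WT Myc against WT Ctrl 1 was called higher and 1 lower, against 21.6% and 22.7%. The medians of the 10 genes were -0.65, -0.67 and 0.11, beside medians of all genes between 0.0066 and 0.017.

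Marker genes moved with these contrasts too, beside the shares of all genes given just above. Of 6 mesenchymal markers 0 were called higher and 6 lower with the Myc vector in KO1, 5 higher and 0 lower in KO2, and 1 higher and 2 lower in WT. Their summed level was 8301 to 8468 CPM in KO1 Ctrl and 5017 to 5244 CPM in KO1 Myc, 4991 to 5213 CPM in KO2 Ctrl and 6589 to 6767 CPM in KO2 Myc, and 6291 to 6460 CPM in WT Ctrl and 4797 to 4850 CPM in WT Myc. Of the 4 listed epithelial markers 1 was called higher and 1 lower in KO1, and 4 were called lower in KO2 and in WT. As labelled, the mesenchymal markers moved in opposite directions in KO1 and KO2, where the lipogenic genes were lower in both. The part of these markers in the result was not tested. Afp was at 0.80 to 0.92 CPM in KO1 Ctrl and 8.13 to 8.56 CPM in KO2 Ctrl. With the Myc vector it was at 2.53 to 3.55 CPM in KO1 and 0.22 to 0.30 CPM in KO2. Trim33 mRNA and Afp were thus lower in KO1 than in KO2 with the Ctrl vector and higher with the Myc vector. Whether the names KO1 and KO2 mark the same lines with both vectors was not tested.

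**Figure D3:**
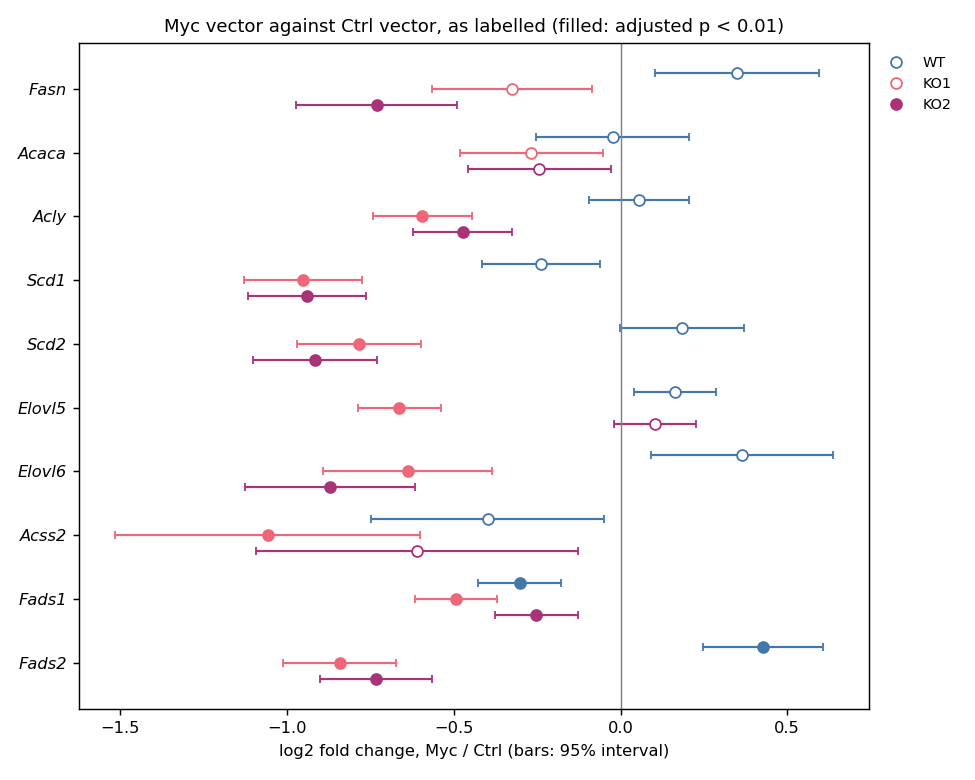
Log2 fold change of the Myc vector against the Ctrl vector for each gene (x axis; 0 is no difference) in the lines labelled WT, KO1 and KO2, with bars for the 95% interval and filled points for an adjusted p below 0.01. Scd1 and Scd2 are between -0.78 and -0.95 in KO1 and KO2, while Fads2 is at 0.43 in WT and at -0.84 and -0.73 in KO1 and KO2.

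The desaturases fell in both KO lines. Scd1 was at 297 and 328 CPM in KO1 Myc and at 324 and 274 CPM in KO2 Myc, all below the KO Ctrl libraries and below both WT Ctrl libraries. Its log2FC was -0.95 ± 0.083 (adjusted p = 1.25e-07) in KO1 and -0.94 ± 0.083 (adjusted p = 1.47e-07) in KO2. Scd2 was at 1155 and 1246 CPM in KO1 Myc and at 1334 and 1078 CPM in KO2 Myc, with log2FC of -0.78 and -0.92. These levels lie around those of WT Ctrl. Fads2 was lower by -0.84 and -0.73 and Fads1 by -0.49 and -0.25, and the call of Fads1 in KO2 was lost without KO2 Ctrl replicate 2 (-0.20, adjusted p = 0.0386) or KO2 Myc replicate 2 (-0.22, adjusted p = 0.0246).

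Among the genes of synthesis and elongation, Acly and Elovl6 fell in both KO lines. Fasn was at 528 and 578 CPM in KO1 Myc, a log2FC of -0.33 against KO1 Ctrl that did not pass (adjusted p = 0.0253), and at 455 and 336 CPM in KO2 Myc, a log2FC of -0.73 ± 0.114 (adjusted p = 6.09e-05). Acaca was at 129 and 137.5 CPM in KO1 Myc and at 143 and 115 CPM in KO2 Myc. Its log2FC of -0.27 and -0.24 did not pass in either line (adjusted p = 0.0383 and 0.0538). When only the compared groups were fitted, Fasn and Acaca were both called lower in KO1. Acly was lower by -0.59 and -0.47 and Elovl6 by -0.64 and -0.87.

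As labelled, Elovl5 and Acss2 were called lower in KO1 and were not called in KO2, and the difference between the lines was not itself tested. Elovl5 was at 129 and 131 CPM in KO1 Myc (log2FC -0.66) and at 174 and 166 CPM in KO2 Myc (0.10, adjusted p = 0.147). It had been at 215 and 197 CPM in KO1 Ctrl and at 155 and 162 CPM in KO2 Ctrl. Elovl5 was thus higher in KO1 than in KO2 with the Ctrl vector and lower with the Myc vector. These contrasts hold only if KO1 and KO2 name the same lines with both vectors, which was not tested. Acss2 was at 2.73 and 3.27 CPM in KO1 Myc and at 2.73 and 3.15 CPM in KO2 Myc, with log2FC of -1.06 ± 0.215 (adjusted p = 0.000709) and -0.61 ± 0.228, which did not pass (adjusted p = 0.0345). The levels of Acss2 in the 4 libraries were thus near each other, and the KO Ctrl levels they were set against were not. Without KO1 Myc replicate 1 the call of Acss2 in KO1 was lost (-0.91, adjusted p = 0.0138).

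In the libraries labelled WT, Fads2 rose from 64.7 and 57.3 CPM to 76.8 and 87.0 CPM (log2FC 0.43 ± 0.085, adjusted p = 0.00048) and Fads1 fell from 377 and 376 CPM to 289 and 321 CPM (-0.30 ± 0.058, adjusted p = 0.000351). Fasn had a log2FC of 0.35 (adjusted p = 0.0171) and Elovl6 of 0.36 (adjusted p = 0.0236). The replicates labelled WT Myc differed: Fasn was at 300 and 383 CPM, Elovl6 at 72.6 and 101 CPM, and all 10 genes were higher in replicate 2. A chi-square of the replicates' counts was 10.8 per gene in WT Myc, beside 2.17 to 4.46 in the other groups. Without WT Myc replicate 1 the calls were 5 (Elovl6, Fads2, Fasn and Scd2 higher, Fads1 lower), and without WT Ctrl replicate 2 there was 1 (Fads1). With library totals alone as the scale, 4 genes were called higher and 1 lower.

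The difference between the lines' responses was tested as an interaction, with groups as labelled. For KO1 against WT, the response to the Myc vector was lower in 7 of 10 genes and higher in 0, where 18.1% of all genes were called lower and 19.2% higher. For KO2 it was lower in 6 of 10 and higher in 0, against 16.2% and 16.6%. Fads2 had the largest interaction in KO1 at -1.27 ± 0.117 (adjusted p = 2.26e-07), and Elovl6 the largest in KO2 at -1.24 ± 0.176 (adjusted p = 3.05e-05). Acaca did not pass in either (-0.24, adjusted p = 0.186, and -0.22, adjusted p = 0.241). Elovl5 passed in KO1 (-0.83) and had -0.059 in KO2 (adjusted p = 0.588). Both interactions contain the contrasts of KO Ctrl with WT Ctrl described above and share the WT libraries.

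Set directly against the libraries labelled WT Myc, those labelled KO1 Myc had 2 genes called higher and 2 lower, where 12.6% of all genes were called higher and 12.5% lower, and those labelled KO2 Myc had 1 higher and 1 lower, against 17.2% and 18%. Given the Trim33 mRNA levels above, the first of these is not a contrast of less with more Trim33 mRNA as the names would have it. In the second, Trim33 mRNA was lower in KO2 Myc (mean 124 CPM) than in WT Myc (mean 143 CPM), a difference that did not pass. Acaca was higher in KO1 Myc (0.74 ± 0.105, adjusted p = 4.21e-05) and in KO2 Myc (0.69 ± 0.104, adjusted p = 4.84e-05). All 4 libraries were above both WT Myc libraries, which were at 69.8 and 89.3 CPM. Acss2 was lower in both (-1.45 and -1.47, against 7.87 and 8.46 CPM in WT Myc). Fasn was called higher in KO1 Myc (0.70) and had 0.21 in KO2 Myc, which did not pass (adjusted p = 0.138), and Elovl5 was called lower in KO1 Myc (-0.57) and had -0.18 in KO2 Myc, which did not pass (adjusted p = 0.0178). For KO2 Myc the calls were 4 without WT Myc replicate 1 (Acaca higher, Acss2, Scd1 and Scd2 lower) and 6 without WT Myc replicate 2 (Acaca, Acly, Elovl6, Fads2 and Fasn higher, Acss2 lower).

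The third comparison followed the genes in the HU experiment. There Fasn and Acaca were lower in KO than in WT cells with the control treatment, while the other 7 genes did not pass. The 2 experiments were sequenced at different depth and normalized separately, so their levels are given side by side and were not tested against each other. In KO Vehicle against WT Vehicle 0 of 9 genes were called higher and 2 lower, where 3.07% of all genes were called higher and 2.52% lower. In KO HU against WT HU 0 were called higher and 1 lower, against 3.27% and 2.77%. The medians of the 9 genes were -0.10 and -0.062. Both KO Vehicle libraries were below both WT Vehicle libraries for 5 of 9 genes (Fasn, Acaca, Acly, Scd2 and Fads2), as they were for 25% of all genes. These 5 also had all KO Ctrl libraries above both WT Ctrl libraries in the Myc experiment, which held together for 9.78% of the 11161 genes that both experiments list.

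**Figure D4:**
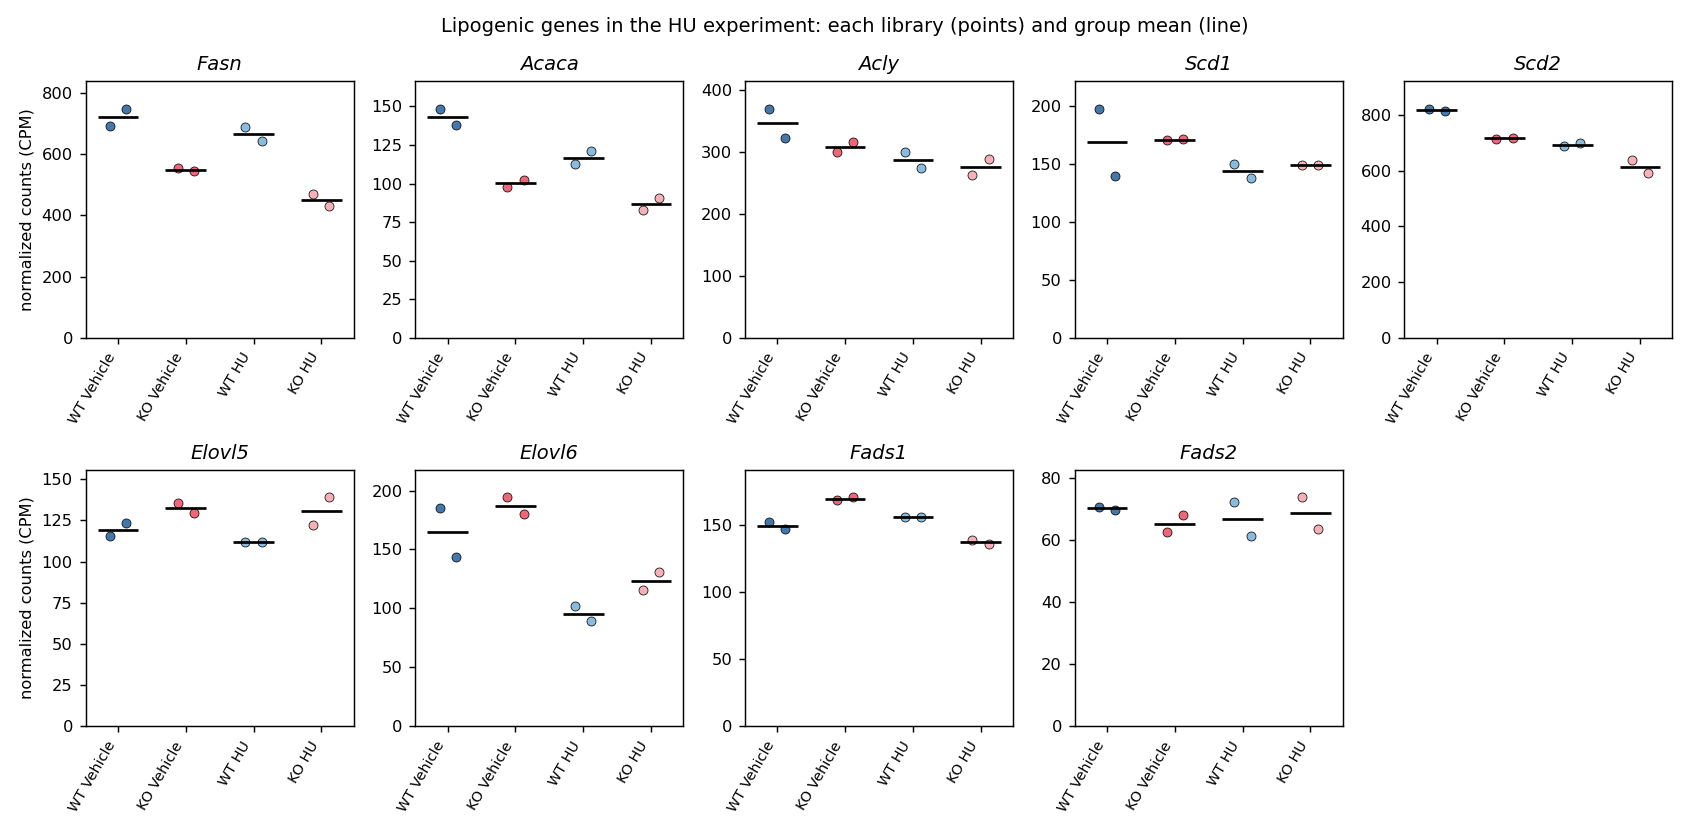
Level of each of the 9 genes in the table (CPM scaled by TMM, linear axis from 0) in the 8 libraries of the HU experiment, with 1 point per library and a line at the mean of each group of 2. Both KO points of Fasn and of Acaca lie below both WT points with either treatment, and the HU points of Elovl6 lie below the vehicle points in WT and in KO.

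Fasn was at 693 and 750 CPM in WT Vehicle and at 555 and 544 CPM in KO Vehicle. With HU it was at 689 and 644 CPM in WT and at 470.5 and 431.5 CPM in KO. All KO libraries were below all WT libraries, with log2FC of -0.39 ± 0.100 (adjusted p = 0.00472) in vehicle and -0.56 ± 0.101 (adjusted p = 3.97e-05) in HU. Acaca was at 149 and 138 CPM in WT Vehicle, at 97.6 and 103 CPM in KO Vehicle, at 113 and 121 CPM in WT HU and at 83.1 and 90.5 CPM in KO HU. The KO libraries were again the lower ones, with log2FC of -0.52 ± 0.138 (adjusted p = 0.00761) and -0.43 ± 0.140, the second not past 0.01 (adjusted p = 0.0348).

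These calls depended on single libraries and on the fit. In vehicle, neither gene was called when the WT Vehicle and KO Vehicle libraries were fitted alone (adjusted p = 0.038 for Fasn and 0.0194 for Acaca), Fasn alone was called by DESeq2 (adjusted p = 0.00264) and without WT Vehicle replicate 1 (0.00253), and none was called without WT Vehicle replicate 2, KO Vehicle replicate 1 or KO Vehicle replicate 2. In HU the call of Fasn was lost without KO HU replicate 2 (-0.50, adjusted p = 0.013) or WT HU replicate 1 (-0.51, adjusted p = 0.0131).

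For the genes that were higher in KO1 Ctrl and KO2 Ctrl, the HU experiment gave no call upward. Elovl6 had a log2FC of 0.19 (95% interval -0.073 to 0.45) in vehicle and 0.37 (0.089 to 0.64, adjusted p = 0.0755) in HU. Fads2 had -0.10 (-0.44 to 0.24) and 0.043 (-0.29 to 0.38), with 61.3 to 73.9 CPM over all 8 libraries. Scd1 had 0.024 and 0.050, Scd2 had -0.19 and -0.17, and Acly had -0.17 and -0.062. Fads1 and Elovl5 had 0.18 and 0.15 in vehicle and -0.19 and 0.22 in HU. Around the pathway, Srebf1 had -0.22 and -0.41 and Insig1 -0.26 and -0.14, none of which passed, while Cpt1a was called lower in both (-0.52 and -0.57).

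HU lowered 1 of the 9 genes in each genotype. Elovl6 was at 185 and 144 CPM in WT Vehicle and at 102 and 89.0 CPM in WT HU, and at 194 and 180 CPM in KO Vehicle and 116 and 131 CPM in KO HU. In both genotypes all HU libraries were below all vehicle libraries, with log2FC of -0.78 ± 0.136 (adjusted p = 1.75e-05) in WT and -0.60 ± 0.133 (adjusted p = 0.00106) in KO, at a threshold of 0.05. In WT 0 genes were called higher and 1 lower, where 6.39% of all genes were called higher and 3.44% lower, and in KO 0 higher and 1 lower, against 4.65% and 1.8%. In WT the calls were 3 without WT Vehicle replicate 2 (Acly, Elovl6 and Scd1 lower), and in KO the call of Elovl6 was lost without KO HU replicate 1 (-0.52, adjusted p = 0.0786).

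The 8 genes other than Elovl6 ranged from -0.30 (Acaca) to 0.065 (Fads1) in WT and from -0.31 (Fads1) to 0.072 (Fads2) in KO. Under an unadjusted p of 0.05 there were 4 of the 9 genes in each genotype, Elovl6 included. The interaction of HU with KO called 0 genes by edgeR and 0 by DESeq2, where 0.0446% of all genes were called higher and 0.0268% lower, and 1 gene was under an unadjusted p of 0.05, Fads1 (-0.37, adjusted p = 0.887), named after its value was seen. For Elovl6 the interaction was 0.18 (95% interval -0.20 to 0.56).

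Across the 12 libraries of the Myc experiment the genes varied together to different degrees, given here as a description over libraries that share groups and lines. The log2 CPM of Fasn had a Pearson r of 0.97 with Elovl6, 0.92 with Acaca, 0.90 with Fads2 and 0.89 with Acly, and Scd1 had 0.93 with Scd2 and 0.88 with Fads1. Elovl5 had -0.10 with Fasn and Acss2 had -0.50. Over the 8 libraries of the HU experiment Fasn had 0.90 with Acaca and 0.84 with Scd2, and -0.036 with Elovl6. The pair Fasn and Elovl6, so close in the first experiment, thus varied apart in the second.

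Of all other genes, those most like Fasn over the 12 libraries were St3gal1 (r = 0.97), Elovl6 (0.97) and Nectin3 (0.97), with r of -0.060, -0.036 and 0.58 over the 8 libraries. Those most like Scd1 were Srebf2 (0.99), Hspa4l (0.98) and Sqle (0.98), with -0.63, 0.49 and 0.64. Those most like Fads2 were Slco3a1 (0.99), Mdga1 (0.99) and Cemip2 (0.99), with r of 0.29 for Mdga1 and 0.37 for Cemip2 over the 8 libraries. The libraries of a group share their line and vector, so few independent points stand behind each r.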

How the data were processed

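RNA-seq of 20 libraries (10 groups of 2) was analysed from 2 tables of gene counts that the authors deposited, whole numbers of reads per gene. Per the labels, libraries were made with NEBNext Ultra II kits after TRIzol extraction, and the submitters' processing notes name STAR 2.5.4, mm9 and edgeR 3.26.8, with FastQC 0.11.5 and bcl2fastq 2.20 for the HU samples; the study's text names RNeasy columns. The counting tool is not given in the sources used here. The table of the Myc experiment is called normalized by its name, but its whole numbers sum to different totals. Of counts from 1 to 50, 48.4% were even for the Myc libraries and 71.9% for the HU libraries, so single HU counts may not be single reads. The authors' own comparisons (log2 fold changes, mean log2 CPM, F statistics, p-values) were not used.

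Each table was fitted alone with edgeR 4.0.16 (R 4.3.3, limma 3.58.1), with TMM scaling, filterByExpr, 1 coefficient per group over all groups and the two-sided quasi-likelihood test. P-values were adjusted over all genes by Benjamini-Hochberg, with thresholds of 0.01 for KO and Myc comparisons and 0.05 for HU comparisons. SE is the absolute log2FC over the square root of F. Steps were tested on simulated data. DESeq2 1.42.0, other scalings, filters, thresholds, left-out libraries, a replicate block and halved HU counts were alternatives. The genes and lists were chosen with earlier results of these data known. Named genes outside the 10 were fixed regulators and neighbours, plus, per list, the 2 genes with the largest mean log2FC called alike in both KO lines at a mean of at least 5 CPM, and for Fasn, Scd1 and Fads2 the 3 most correlated genes. Some genes that this rule names are not reported here.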

Additional observations from a re-analysis of the deposited data

Results flagged for a closer look

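Responses to the Myc vector differed between lines by the interaction test, with groups as labelled. Against WT, the difference in KO1 was -0.68 for Fasn, -0.65 for Acly, -0.71 for Scd1, -0.97 for Scd2, -0.83 for Elovl5, -1.003 for Elovl6 and -1.27 for Fads2 (log2). In KO2 it was -1.08 for Fasn, -0.53 for Acly, -0.70 for Scd1, -1.10 for Scd2, -1.24 for Elovl6 and -1.16 for Fads2. The call of Fasn in KO1 was lost with DESeq2 (adjusted p = 0.0152) and without KO1 Ctrl replicate 2, KO1 Myc replicate 1 or WT Ctrl replicate 2. Of all genes, 18.1% were called lower and 19.2% higher for KO1, and 16.2% and 16.6% for KO2. Mean Myc mRNA was 436 CPM in WT Ctrl and 457 CPM in WT Myc, without a called change. It went from 191 to 633 CPM in KO1 and from 214 to 479 CPM in KO2. Trim33 mRNA went against the label of KO1 Myc and was lower in WT Myc than in WT Ctrl.

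The KO lines with the Ctrl vector differed from each other, KO2 minus KO1, by -0.38 for Elovl5 and -0.22 for Fads1. The call of Fads1 was lost in 8 refits, among them DESeq2, RLE scaling and each fit that left out a compared library.

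For 5 of 9 genes both KO libraries of the HU experiment with the control treatment were below both WT libraries, while all KO Ctrl libraries of the Myc experiment were above both WT Ctrl libraries. The log2FC of KO Vehicle against WT Vehicle was -0.39 for Fasn, -0.52 for Acaca, -0.17 for Acly, -0.19 for Scd2 and -0.10 for Fads2, of which Acly, Scd2 and Fads2 did not pass (adjusted p = 0.364, 0.209 and 0.78). Of all 11210 genes of the HU experiment 25% had both KO Vehicle libraries below both WT Vehicle libraries, and of the 11161 genes that both experiments list 9.78% had this together with all KO Ctrl libraries above both WT Ctrl libraries. The experiments were normalized separately, and this difference was not tested.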

How the results depend on the processing

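Of 60 called values of single genes, 0 changed direction in 798 refits, and 34 of these refits lost the call. These refits include a fit without the filter, which removed 0 genes, and a changed threshold on the main fit. Neither of these could change a direction. The values that changed direction were those of genes that were not called. With library totals alone as the scale, Acaca in WT Myc vs WT Ctrl was 0.059, Fads1 in KO2 Ctrl vs WT Ctrl 0.028 and in the Myc by KO2 interaction -0.044, Fads2 in KO HU vs WT HU -0.0052 and Scd1 in KO Vehicle vs WT Vehicle -0.020. Over left-out libraries the ranges were as follows. In KO2 Ctrl vs KO1 Ctrl, Acaca went from -0.15 to 0.0030, Elovl6 from -0.036 to 0.042 and Fads2 from -0.047 to 0.061. In WT Myc vs WT Ctrl, Acaca went from -0.21 to 0.14 and Acly from -0.051 to 0.15. In KO1 Myc vs WT Myc, Fads1 went from -0.10 to 0.052, Fads2 from -0.014 to 0.17 and Scd1 from -0.21 to 0.032. In KO2 Myc vs WT Myc, Elovl6 went from -0.031 to 0.45, Fads1 from -0.078 to 0.073 and Fasn from -0.023 to 0.42. In the Myc by KO2 interaction, Acss2 went from -0.55 to 0.23 and Fads1 from -0.023 to 0.13. In KO Vehicle vs WT Vehicle, Scd1 went from -0.22 to 0.29. In KO HU vs WT HU, Acly went from -0.13 to 0.0084, Fads2 from -0.071 to 0.17 and Scd1 from -0.0064 to 0.11. In WT HU vs WT Vehicle, Fads2 went from -0.20 to 0.039 and Scd1 from -0.47 to 0.033. In KO HU vs KO Vehicle, Elovl5 went from -0.12 to 0.069 and Fads2 from -0.042 to 0.17. In the HU by KO interaction, Elovl5 went from -0.022 to 0.16, Elovl6 from -0.0058 to 0.37, Scd1 from -0.23 to 0.28 and Scd2 from -0.036 to 0.071.

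Counts of called members changed as follows, and the cause was not tested. Smaller changes are not all listed. KO1 Myc vs KO1 Ctrl had 10 with the compared groups alone or at a threshold of 0.05, beside 8, so Fasn and Acaca were called there. KO2 Myc vs KO2 Ctrl had 8 in both of these settings, beside 7. KO1 Myc vs WT Myc had 5 at 0.05, beside 4. The Myc by KO1 interaction had 6 with DESeq2, beside 7. KO2 Ctrl vs KO1 Ctrl had 1 with DESeq2, RLE scaling, library totals alone or a mean of at least 5 CPM, 3 (Scd2 higher) with the compared groups or the Ctrl-vector libraries alone, and 1 to 2 over left-out libraries, beside 2. WT Myc vs WT Ctrl had 1 with the compared groups alone, 5 with library totals alone, 7 at a threshold of 0.05 and 1 to 5 over left-out libraries, beside 2. KO2 Myc vs WT Myc had 4 at 0.05 and 3 to 6 over left-out libraries, beside 2. KO Vehicle vs WT Vehicle had 0 with the compared groups alone, 1 with DESeq2 and 0 to 1 over left-out libraries, beside 2. KO HU vs WT HU had 2 at 0.05 and 0 to 1 over left-out libraries, beside 1. WT HU vs WT Vehicle had 1 to 3 and KO HU vs KO Vehicle 0 to 1 over left-out libraries, beside 1 each. The 8 called members of KO2 Ctrl vs WT Ctrl stayed 8 in number over left-out libraries, and the 9 of KO1 Ctrl vs WT Ctrl became 8 there and 10 with the compared groups alone, the Ctrl-vector libraries alone, library totals alone or a threshold of 0.05.

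Replicate numbers were not taken to pair the libraries, since the correlations of replicate 1 deviations were not over 0.1 for every pair of groups. In the Myc experiment they were 0.51 for WT Myc with KO1 Myc, -0.38 for WT Myc with KO2 Myc, -0.18 for KO1 Myc with KO2 Myc and between -0.070 and 0.20 for the others, and in the HU experiment they were between -0.024 and 0.090. With a replicate block the counts of called members were 9 for KO1 Ctrl and 8 for KO2 Ctrl against WT Ctrl and 2 for KO Vehicle against WT Vehicle, as without it. With the numbers of KO2 Myc crossed, a pairing chosen after seeing the data, KO2 Myc vs WT Myc had 3 calls. With 2 libraries a group and the lower depth of the HU experiment, small differences there were not detectable.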
